A study of Arabidopsis thaliana with 3 samples.

Results

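The response of wild-type Arabidopsis thaliana seedlings to 4 h of salt is described here across the genes of the nuclear genome. A gene was taken in when its FPKM, a level per transcript length and per sequenced fragment total, was 5 or more with salt, without salt or both. This held for 15761 of the 33278 nuclear genes listed, out of 33557 genes in all, and 279 loci of the plastid and mitochondrial genomes were left out. Of the 15761 genes, 13553 reached 5 FPKM in both columns, 1212 only with salt and 996 only without salt. Just inside the limit lay AT3G28540 (3.84 FPKM with salt, against 5.002 FPKM without salt) and AT5G15710 (5.004 FPKM with salt, against 3.72 FPKM without salt), and just outside it AT1G03180 (4.997 FPKM with salt, against 4.53 FPKM without salt).

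Seedlings 11 days old were kept in MS liquid medium with 200 mM NaCl for 4 h or in the same medium without added salt, and both groups were wild type. A further group of the series, the skip mutant with salt, is not described. The tissue label is the plant as a whole, so roots and shoots were measured together. The deposited value of a gene in a group stands for 2 replicates together, so differences cannot be set against a spread between replicates, no error or p-value can be given, and every statement is about sizes. A gene is called higher or lower with salt when the ratio of FPKM + 1 is at least 2-fold, and all folds and log2 ratios are on that scale, which understates changes of genes with low values. With a pseudocount of 5 in place of 1, the genes WRKY24, MYB29, NF-YC4, ARR7, IVD, CYC1BAT, MCM3, NRT2:1, AMT1;3, CRA1 and CRU3, given below as higher or lower or with values past 2-fold, lie within it. Further genes that enter the family and marker counts below also lie within 2-fold at that pseudocount. Read totals were not used here, and the depth is unknown.

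Salt in the medium draws water out of plant cells and lets sodium in. The first signals are a rise of calcium in the cell, reactive oxygen and the hormone abscisic acid (ABA), which act through protein kinases on transcription factors. Known responses include protective proteins and sugars, closing of stomata and slower growth, since growth needs water uptake and a cell wall that can yield.

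With salt, 1730 of the 15761 genes were higher and 965 were lower, which is 11% and 6.12% of them. At least 4-fold, 677 were higher and 243 lower, or 4.3% and 1.54%. The median log2 ratio was 0.01, the quartiles were -0.35 and 0.42, and 66.5% of the genes lay within 1.5-fold. The limit on FPKM takes part in these counts, because a gene that passes it in 1 column only is more likely to differ: 737 of the 1212 genes that passed only with salt were higher, and 445 of the 996 that passed only without salt were lower. Among the 13553 genes above the limit in both columns, 993 were higher and 520 lower, or 7.33% and 3.84%. For a gene family the counts below are therefore given over every listed gene, with no limit on FPKM, where 6.08% of all nuclear genes were higher and 3.7% lower, and for part of the groups again over the genes at 5 FPKM or more in both columns. A median is over the members, the genes at 5 FPKM or more in at least 1 column.

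**Figure D1:**
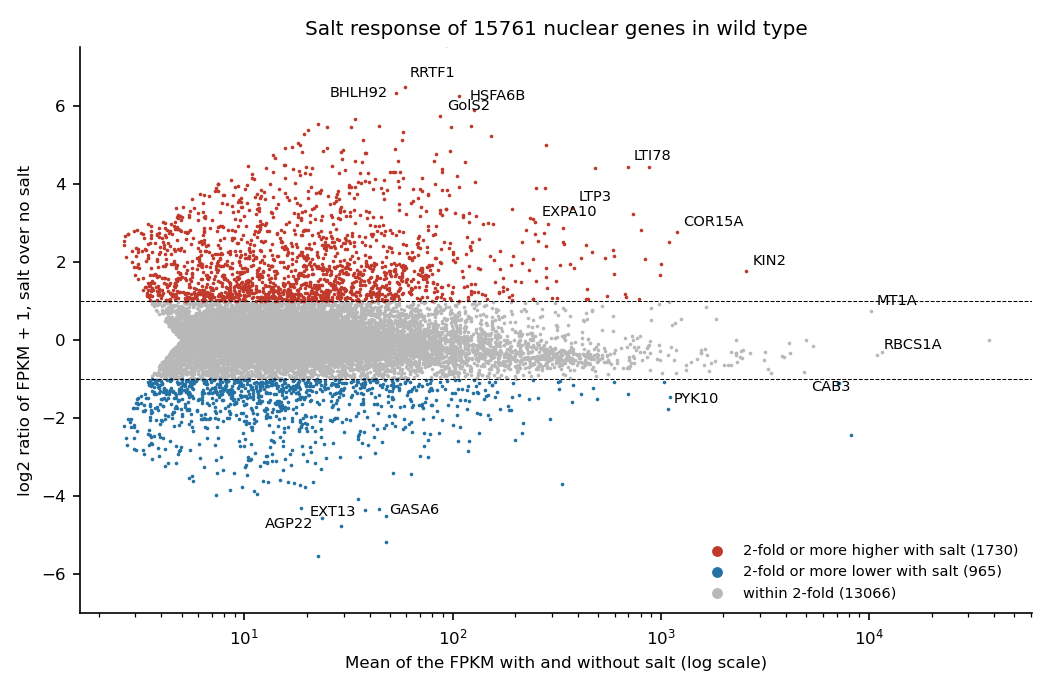
Log2 ratio of FPKM + 1 (salt over no salt) of the 15761 nuclear genes on the y axis against the mean of both FPKM values on a log axis, 1 point per gene. Of these genes, 1730 lie on or above the upper dashed line at 2-fold and 965 on or below the lower one, and 3 loci that are listed at 0 in a column, AT3G41768, MIR397a and MIR400, lie beyond the y axis.

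By amount, the higher genes together held 15.9% of the summed FPKM with salt and 3.59% without salt. The lower genes held 3.55% with salt and 10.4% without salt, and 2.24% and 6.64% when rRNA loci, other non-coding loci and transcripts under 300 nt were left out. Protective proteins made up most of the largest gains in FPKM among protein-coding genes. KIN2 (AT5G15970), a small cold- and drought-responsive protein, was listed at 3972 FPKM with salt, against 1171 FPKM without salt. COR15A (AT2G42540), which protects chloroplast membranes, was listed at 2091 FPKM with salt, against 309 FPKM without salt, and AT3G02480, a protein of the LEA (late embryogenesis abundant) family, at 1674 FPKM with salt, against 76.5 FPKM without salt. The dehydrins COR47, LTI30 and ERD10, which bind water and membranes in drying cells, were listed at 1856, 1404 and 1325 FPKM with salt, against 326, 200.0 and 141 FPKM without salt. LTI78, better known as RD29A, reached 1326 FPKM with salt, against 60.2 FPKM without salt, and COR413-PM1, a membrane protein, 1596 FPKM with salt, against 413 FPKM without salt. MT1A, a metallothionein that binds metals, had the largest gain of any coding gene while its ratio stayed under 2-fold, with 12731 FPKM with salt, against 7639.7 FPKM without salt, and all 50-nt stretches of its transcript also occur in the locus AT1G07590. This shared share is given below, as a percent, for each named gene where it is 20% or more, since the values of such genes depend on how the authors' counting split the reads.

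On the other side, the largest losses in FPKM were those of rRNA loci and of photosynthesis genes whose ratios were mostly small, besides the microRNA precursor locus MIR400. MIR400 was listed at 0 FPKM with salt, against 2202 FPKM without salt, but it is only 102 nt long, where few reads can give a large FPKM. The 18S rRNA locus AT2G01010 was listed at 2587 FPKM with salt, against 13905 FPKM without salt, while its near copy AT3G41768, which shares 94.3% of its sequence, was listed at 5092 FPKM with salt and at 0 without salt. The part of RNA selection in these values was not tested. RBCS1A, a small subunit of Rubisco, the enzyme that fixes CO2, was listed at 9510.0 FPKM with salt, against 12449 FPKM without salt. The light-harvesting proteins CAB3 and CAB1 were listed at 3528 and 10337 FPKM with salt, against 6270.4 and 12706 FPKM without salt. CAB1 shares 22.02% of its sequence. These 3 coding genes stayed within 2-fold. Genes of the highest levels tended to lie below 0: the median log2 ratio was -0.37 for the 339 genes with a mean of 300 FPKM or more, against 0.04 for the 4541 genes with a mean under 10 FPKM, although the share of higher genes was alike at 10.3% and 11.5%.

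Calcium sensors and kinases were higher in part. Of 14 listed calmodulin-like (CML) genes, whose proteins bind calcium, 6 were higher and 3 lower, and of the 5 at 5 FPKM or more in both columns 2 were higher. The 3 lower ones were under 5 FPKM in both columns. CML37 was listed at 88.03 FPKM with salt, against 0.981 FPKM without salt, and its relative CML38 at 52.4 FPKM with salt, against 3.02 FPKM without salt. TCH3, first found as a gene induced by touch, reached 148 FPKM with salt, against 18.7 FPKM without salt. The CIPK kinases, which work with calcineurin B-like calcium sensors, included many higher genes: 11 of 26 were higher and none lower, and the 17 above the limit in both columns included 8 higher and 0 lower. SR1 (AT5G01820, CIPK14) was listed at 112 FPKM with salt, against 39.5 FPKM without salt, CIPK12 at 80.7 FPKM with salt, against 31.2 FPKM without salt, and SIP4 (CIPK11) at 34.7 FPKM with salt, against 7.44 FPKM without salt, with 98.2% of the SIP4 sequence shared with another locus. The CPK kinases, which carry their own calcium-binding domain, moved little, with 2 of 34 higher, 1 lower and a median log2 ratio of 0.13 over 20 members. The lower CPK gene was under 5 FPKM in both columns. CPK32 was the furthest, with 39.5 FPKM with salt, against 14.7 FPKM without salt.

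In the MAP kinase cascade, 9 of 21 listed MAPKKK genes were higher and none lower, but only 10 were above the limit in both columns, of which 2 were higher. MAPKKK18, a kinase of ABA signalling, was listed at 60.6 FPKM with salt, against 3.07 FPKM without salt, and MAPKKK21 at 25.2 FPKM with salt, against 0.235 FPKM without salt. MAPKKK14 was listed at 40.02 FPKM with salt, against 5.12 FPKM without salt, and MAPKKK15 at 10.98 FPKM with salt, against 1.09 FPKM without salt. Of 23 plant U-box ubiquitin ligases (PUB), which mark proteins for breakdown, 8 were higher and none lower. PUB19, which holds ABA and drought responses down, had the widest ratio with 74.1 FPKM with salt, against 1.73 FPKM without salt. Its close relative PUB18 was listed at 8.08 FPKM with salt, against 1.39 FPKM without salt, and the immunity-related PUB23 and PUB24 at 35.5 and 11.8 FPKM with salt, against 8.85 and 1.39 FPKM without salt, and PUB23 shares 22.3% of its sequence. Of the 18 proteasome subunits listed none passed 2-fold, and the median of 17 members was -0.07.

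Transcription factors of the WRKY, NAC, MYB, ERF, heat shock factor and ZAT families were more often higher than lower. Of 72 WRKY genes 20 were higher and 3 lower, of 100 NAC genes 24 and 0, of 125 MYB genes 29 and 6, of 28 ERF genes 16 and 0, of 19 heat shock factors 8 and 0, and of 8 zinc fingers of the ZAT and AZF kind 6 and 0. Many of these were low without salt: 13 of the 21 ERF members, 19 of the 52 MYB members and 15 of the 45 WRKY members were under 5 FPKM in that column. So were 10 of the 41 NAC members, 7 of the 14 heat shock factors and 4 of the 7 ZAT and AZF members. Among genes above the limit in both columns, 7 of 27 WRKY, 14 of 31 NAC, 9 of 31 MYB and 3 of 8 ERF genes were higher. The same held for 2 of 7 heat shock factors and 2 of 3 ZAT and AZF genes. With a pseudocount of 5, the heat shock factors HSFA3, HSFA7A and HSFB2B came within 2-fold. So did the 3 lower WRKY genes, WRKY24, WRKY56 and WRKY9, and the higher WRKY19, WRKY23 and WRKY67. Of 47 homeobox genes of the HB kind 10 were higher and 2 lower, and of 17 SPL factors, which act in development, 3 and 0. None of 23 ARF auxin response factors, 1 of 22 TCP factors and 1 of 29 GATA factors were higher, and none of these were lower. Over the members the median log2 ratio was 2.62 for ERF, 1.11 for NAC, 0.997 for MYB and 0.60 for WRKY factors, 0.59 for SPL factors, 0.06 for the HB genes, 0.13 for ARF and -0.17 for TCP factors, against 0.01 for all genes. With a limit of 1 FPKM in place of 5, these medians were 1.76 for ERF, 0.42 for NAC, 0.35 for MYB and 0.42 for WRKY factors.

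**Figure D2:**
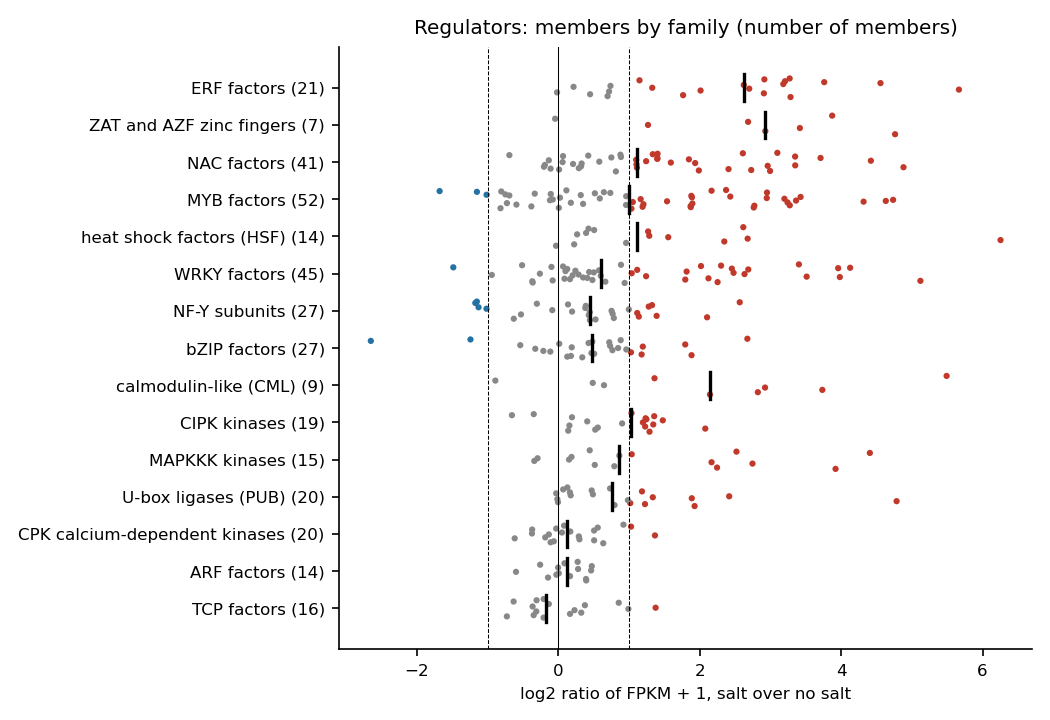
Log2 ratio of FPKM + 1 (salt over no salt) of the members of 15 regulator families, 1 point per gene, with the family's median as a black bar and dashed lines at 2-fold; red points are higher, blue points lower and grey points within 2-fold. The ERF median lies at 2.62 and the NAC median at 1.11, while the 14 ARF and all but 1 of the 16 TCP members lie between the dashed lines.

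Within the WRKY family, WRKY40 and WRKY33, regulators of defence, ABA and salt responses, were listed at 112 and 156 FPKM with salt, against 2.24 and 8.96 FPKM without salt. WRKY30 was listed at 21.9 FPKM with salt, against 0.310 FPKM without salt, and WRKY24 was the member furthest below 0 with 1.34 FPKM with salt, against 5.56 FPKM without salt. The stress NAC factors NAC019, RD26 and AT3G15500 (ANAC055), which share targets in ABA and jasmonate responses, were listed at 103, 179 and 38.7 FPKM with salt, against 2.55, 12.8 and 0.855 FPKM without salt. The most abundant NAC gene was NAC102 with 439 FPKM with salt, against 50.4 FPKM without salt. Higher MYB factors had different known roles. MYB15 and MYB108, stress regulators, were listed at 57.5 and 35.8 FPKM with salt, against 1.36 and 0.846 FPKM without salt, and MYB121 at 27.4 FPKM with salt, against 0.0677 FPKM without salt. The activators of anthocyanin pigment synthesis PAP1 (AT1G56650, MYB75) and MYB90 were listed at 102 and 25.2 FPKM with salt, against 14.03 and 1.71 FPKM without salt.

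Lower MYB factors were few and included known regulators of glucosinolates, the mustard oil precursors. MYB28 and MYB29, which drive the aliphatic branch, were listed at 23.5 and 13.1 FPKM with salt, against 77.4 and 27.5 FPKM without salt. MYB51 of the indolic branch lay on the other side with 20.9 FPKM with salt, against 2.23 FPKM without salt. Of the zinc fingers, STZ (ZAT10) and RHL41 (ZAT12), repressors and regulators of abiotic stress genes, were listed at 162 and 122 FPKM with salt, against 4.997 and 7.42 FPKM without salt. The heat shock factor HSFA6B had the widest ratio of its family, with 212 FPKM with salt, against 1.80 FPKM without salt. HSFC1 was listed at 37.4 FPKM with salt, against 5.01 FPKM without salt, with 84.7% of its sequence shared, and HSFA2 at 13.5 FPKM with salt, against 1.85 FPKM without salt. Heat shock proteins, the targets of such factors under heat, did not move as a group: 4 of 30 were higher, 1 was lower, and the median of 21 members was 0.02.

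The homeobox genes HB-7 (AT2G46680) and HB-12, which respond to ABA, were listed at 187 and 136 FPKM with salt, against 18.8 and 12.8 FPKM without salt. HB40 and HB21 (AT2G18550), which hold buds dormant and raise ABA synthesis, were listed at 43.6 and 23.99 FPKM with salt, against 2.24 and 1.05 FPKM without salt. Among NF-Y subunits, which bind CCAAT boxes as trimers, 7 of 36 were higher and 4 lower. NF-YA5, a drought factor, was listed at 16.98 FPKM with salt, against 3.18 FPKM without salt, and NF-YB2 at 125 FPKM with salt, against 20.3 FPKM without salt, and they share 22.6% and 31.9% of their sequence with other loci. The 4 lower subunits were of the B and C kinds, and NF-YC4 was listed at 14.1 FPKM with salt, against 32.6 FPKM without salt, with 23.1% shared. All 4 came within 2-fold with a pseudocount of 5, as did the higher NF-YA10 and NF-YB8. bZIP1, an energy-starvation factor, and BZIP60, which drives the unfolded protein response of the endoplasmic reticulum, were listed at 45.8 and 89.3 FPKM with salt, against 6.35 and 23.5 FPKM without salt, whereas bZIP3 was listed at 0.939 FPKM with salt, against 11.2 FPKM without salt.

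The promoters of the higher genes were searched for the short cores that such factors are known to bind. A window of 250 nt before and 50 nt after the gene start was read for 15526 coding members from the TAIR10.1 assembly with its RefSeq annotation, on both strands, and overlapping matches were counted, so a palindromic CACGTG counts 2 matches of the ABA-responsive core ACGTG. That core (ABRE) was present in 52.9% of the genes at least 4-fold higher and in 41.2% of those 2- to 4-fold higher, against 26.6% of the genes within 2-fold, 28.9% of all members and 26.7% of all 27443 RefSeq promoters. It was present in 27.7% of the genes 2- to 4-fold lower and in 35.9% of those at least 4-fold lower. The share of higher genes went up with the number of matches, at 8.31% with none, 13.5% with 1, 19.2% with 2, 24.3% with 3 and 28.7% with 4 or more. By family, the core was present in 17 of 30 LEA protein and dehydrin promoters, but also in 9 of 13 extensin promoters and 19 of 38 histone promoters, while none of 20 extensins was higher and 13 were lower, and 3 of 47 histone genes were higher and 8 lower. The CAMTA core ACGCG, bound by calmodulin-binding activators, was present in 20.2% and 13.6% of the same 2 classes of higher genes, against 9.43% within 2-fold, 6% of the genes 2- to 4-fold lower and 5.56% at least 4-fold lower. It was found in 9.94% of all members and 8.70% of all RefSeq promoters.

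The DRE core CCGAC of CBF and DREB factors was present in 22.0% of the genes at least 4-fold higher, 18.9% of those 2- to 4-fold higher, 10.7% of those 2- to 4-fold lower and 11.1% of those at least 4-fold lower, against 16.6% of all members and 15.05% of all promoters. The share of higher genes did not go up steadily with its number, at 10.4% with none, 13.4% with 1, 12.4% with 2 and 10.2% of 49 promoters with 3. The W-box core TTGAC of WRKY factors occurred in 59.4% of the genes at least 4-fold higher, 52.1% of those 2- to 4-fold lower and 43.6% of those at least 4-fold lower, against 50.6% of all members and 50.5% of all promoters. With its number of matches the share of higher genes went up, at 9.74% with none, 11.2% with 1, 12.5% with 2, 13.5% with 3 and 25.3% with 4 or more. Other cores are known from promoters of ribosomal protein genes. The site II core GGGCC, bound by TCP factors, was present in 10.6% of the genes at least 4-fold higher, 16.7% of those 2- to 4-fold lower and 6.84% of those at least 4-fold lower, against 24.6% of the genes within 2-fold, 57.8% of 301 ribosomal protein members and 18.3% of all promoters. The telo box core AAACCCT was present in 42.5% of the ribosomal protein promoters, against 9.10% of all members and 10.02% of all promoters. The GCC box GCCGCC, the known site of ERF factors, was found in 3.34% of the genes at least 4-fold higher, 1.45% of those 2- to 4-fold higher and 2.19% of both together, against 2.62% of all members and 2.57% of all promoters. The evening element core AATATCT was found in 16.9% of the genes at least 4-fold higher and 16.7% of those at least 4-fold lower, against 12.2% of all members and 11.5% of all promoters. With 0, 1 and 2 matches of the evening element core, the share of higher genes was 10.5%, 13.6% and 15.2%. For the site II core it went down, at 12.4%, 7.31% and 3.74%. For the telo box core it was 11.3%, 6.99% and 5.43%, and for the GCC box 10.9%, 9.40% and 4.76% of 21 promoters. A match says only that these letters are present.

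**Figure D3:**
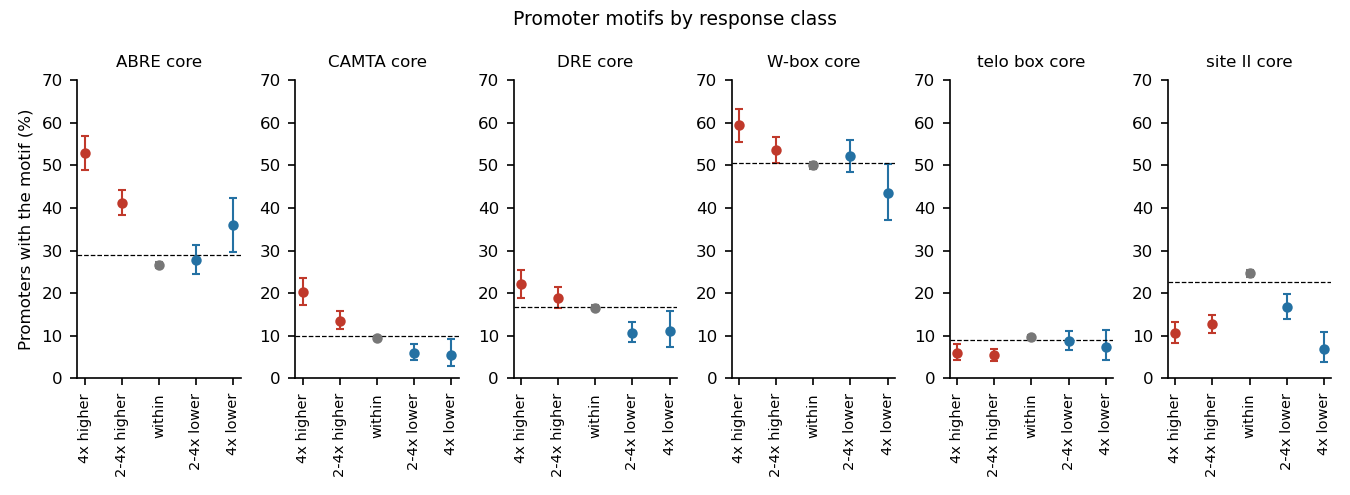
Percent of coding members whose 300-nt promoter window holds each of 6 motif cores, by response class from at least 4-fold higher on the left to at least 4-fold lower on the right; the dashed line is the percent of all members, and bars are 95% exact binomial (Clopper-Pearson) intervals that describe the number of promoters and not plants. For the ABRE core the points run from 52.9% on the left to 26.6% within 2-fold, and for the site II core both ends lie below the 24.6% of the genes within 2-fold.

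Sequences of 4 promoters show what these counts refer to. The 250 nt before the start of 4 genes are given 5′ to 3′ on the gene's own strand, from RefSeq TAIR10.1: 2 higher genes that are rich in the ABRE core, LTI78 as the gene of the classical DRE, and the ribosomal protein gene AT2G36160 for its telo boxes. Capitals mark the core named for each gene on either strand, and other cores in the same window are left in lower case. BHLH92 lies on the minus strand at chr5:17534797-17535046, PUB19 on the plus strand at chr1:22198016-22198265, LTI78 on the plus strand at chr5:21240467-21240716 and AT2G36160 on the plus strand at chr2:15169568-15169817, these being the coordinates of the windows shown.
BHLH92: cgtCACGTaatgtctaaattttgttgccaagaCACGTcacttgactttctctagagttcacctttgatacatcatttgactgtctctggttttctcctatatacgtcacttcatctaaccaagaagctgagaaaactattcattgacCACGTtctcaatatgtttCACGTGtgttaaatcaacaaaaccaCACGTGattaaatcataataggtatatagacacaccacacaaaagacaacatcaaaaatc
PUB19: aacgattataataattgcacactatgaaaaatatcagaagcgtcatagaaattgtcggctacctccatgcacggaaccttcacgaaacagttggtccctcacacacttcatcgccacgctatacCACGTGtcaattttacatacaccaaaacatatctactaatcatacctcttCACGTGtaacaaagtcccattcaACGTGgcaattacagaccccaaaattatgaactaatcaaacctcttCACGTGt
LTI78: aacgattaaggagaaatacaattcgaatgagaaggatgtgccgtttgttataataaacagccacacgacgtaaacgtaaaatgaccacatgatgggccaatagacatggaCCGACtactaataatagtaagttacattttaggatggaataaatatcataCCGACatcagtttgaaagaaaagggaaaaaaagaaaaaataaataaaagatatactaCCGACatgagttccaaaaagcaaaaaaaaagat
AT2G36160: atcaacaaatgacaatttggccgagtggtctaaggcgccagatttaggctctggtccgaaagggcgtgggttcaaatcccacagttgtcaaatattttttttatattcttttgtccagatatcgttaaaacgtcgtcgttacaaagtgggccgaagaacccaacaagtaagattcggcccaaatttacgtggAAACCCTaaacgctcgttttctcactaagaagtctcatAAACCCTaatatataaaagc

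BHLH92, a bHLH factor of osmotic stress, has 7 matches of ACGTG in these 250 nt and was listed at 107 FPKM with salt, against 0.336 FPKM without salt. PUB19 also has 7, of which 6 come from 3 copies of CACGTG, and its values stand above. LTI78 has 3 matches of CCGAC. AT2G36160, with 2 matches of AAACCCT close to its start, was listed at 265 FPKM with salt, against 344 FPKM without salt, a log2 ratio of -0.37.

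Hormone genes moved in different directions by hormone. Ethylene synthesis begins with ACC synthases (ACS), of which 5 of 12 were higher and none lower. ACS6, a target of stress MAP kinases, was listed at 169.9 FPKM with salt, against 7.64 FPKM without salt, and ACS2 at 35.9 FPKM with salt, against 0.971 FPKM without salt. Of 13 gibberellin 2- and 20-oxidases 3 were higher and none lower, and they lay on both sides of the pathway. GA2OX6, which inactivates gibberellin, was listed at 49.2 FPKM with salt, against 5.97 FPKM without salt, and GA20OX5, of the 20-oxidases that act in its synthesis, at 9.34 FPKM with salt, against 0.163 FPKM without salt. The gibberellin-responsive GASA peptides were more often on the other side, with 3 of 7 lower and 1 higher, and GASA6 and GASA5 at 3.26 and 5.69 FPKM with salt, against 85.04 and 17.5 FPKM without salt. GASA3 was the higher one, with 13.3 FPKM with salt, against 0.714 FPKM without salt.

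Of 24 cytokinin response regulators (ARR) 6 were lower and none higher, and the median of 14 members was -0.66. All 6 were of type A, the kind that cytokinin induces and that damps its own signal. With a pseudocount of 5, ARR3, ARR6, ARR7, ARR15 and RR3 came within 2-fold, and ARR4 did not. ARR4 was listed at 30.6 FPKM with salt, against 73.1 FPKM without salt, and ARR7 at 14.8 FPKM with salt, against 31.5 FPKM without salt. The type-B regulators RR1, RR2, RR10, RR12 and RR14, which activate transcription, had log2 ratios from -0.24 to 0.59. ABCG14, the carrier that loads cytokinin for the shoot, was listed at 6.35 FPKM with salt, against 31.5 FPKM without salt.

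Auxin genes split. Of 29 Aux/IAA repressors 8 were higher and 1 lower, and of 10 GH3 enzymes, most of which join auxin or jasmonate to amino acids, 4 were higher and 1 lower. The lower GH3 gene, GH3.9, was under 5 FPKM in both columns and came within 2-fold with a pseudocount of 5. IAA30 was listed at 38.1 FPKM with salt, against 2.17 FPKM without salt, and IAA19 at 30.7 FPKM with salt, against 5.07 FPKM without salt. GH3.3, which inactivates auxin, was listed at 61.7 FPKM with salt, against 3.15 FPKM without salt. The small SAUR genes, many of which promote growth by auxin, went both ways, with 8 of 78 higher and 13 lower, or 2 and 3 of the 15 above the limit in both columns, and AT4G38840 was listed at 17.3 FPKM with salt, against 55.5 FPKM without salt. Jasmonate repressors of the JAZ family were higher in 8 of 12 cases and lower in 1, with JAZ1 at 212 FPKM with salt, against 36.7 FPKM without salt. The lower one, JAZ4, was under 5 FPKM in both columns and came within 2-fold with a pseudocount of 5. Of 14 ABA receptors of the PYR/PYL family 1 was higher and 4 lower, and PYL4 was listed at 7.21 FPKM with salt, against 64.6 FPKM without salt.

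Protective proteins and detoxifying enzymes were more often higher than lower, but not all kinds. Of 56 LEA proteins and dehydrins 28 were higher and 5 lower, and 14 of the 22 above the limit in both columns were higher and 1 lower. AT3G15670 was listed at 240.4 FPKM with salt, against 4.41 FPKM without salt, and LEA7 at 519 FPKM with salt, against 34.05 FPKM without salt. The lower side held AT5G60520, a LEA-related protein, with 0.292 FPKM with salt, against 7.98 FPKM without salt. GolS2 and GolS4, galactinol synthases at the entry to the raffinose sugars, were listed at 173 and 26.6 FPKM with salt, against 2.26 and 3.82 FPKM without salt, whereas GolS1 was listed at 55.8 FPKM with salt, against 42.5 FPKM without salt.

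The 2 large classes of glutathione S-transferases differed in their counts. Of 28 tau-class genes (GSTU) 10 were higher and 3 lower, and of 13 phi-class genes (GSTF) none were higher and 5 lower. GSTU4 was listed at 79.3 FPKM with salt, against 9.56 FPKM without salt, and GSTU5 at 424 FPKM with salt, against 137 FPKM without salt. GSTF9 was listed at 669.9 FPKM with salt, against 1402 FPKM without salt. GSTU20 and GSTF11, which take part in glucosinolate synthesis, were listed at 257 and 5.95 FPKM with salt, against 732 and 34.1 FPKM without salt, and GSTF11 shares 89.3% of its sequence. UGT74B1, a glucosyltransferase of the same pathway, was listed at 34.3 FPKM with salt, against 88.3 FPKM without salt. In the UGT family as a whole 18 of 63 were higher and 5 lower, or 11 and 2 of the 35 above the limit in both columns, and UGT74E2, which acts on the auxin indole-3-butyric acid, was listed at 72.9 FPKM with salt, against 10.3 FPKM without salt. Of 56 MATE carriers, which export organic molecules, 9 were higher and 1 lower, or 5 and 0 of the 25 above the limit in both columns. The lower MATE gene was under 5 FPKM in both columns. AT5G52050 (DTX50), an ABA exporter, was listed at 68.9 FPKM with salt, against 3.35 FPKM without salt, and AT1G61890 at 215 FPKM with salt, against 25.5 FPKM without salt.

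Among sugar and starch genes, beta-amylases, SWEET carriers and trehalose-phosphate synthases included higher genes and no lower one. Of 9 beta-amylases, which release maltose from starch, 3 were higher and none lower, and BAM1 (AT3G23920), the enzyme used under osmotic stress, was listed at 232 FPKM with salt, against 37.7 FPKM without salt. Of 17 SWEET sugar carriers 5 were higher, and 4 of the 9 above the limit in both columns. SAG29 (SWEET15) and SWEET4 were listed at 200.4 and 91.4 FPKM with salt, against 9.96 and 5.43 FPKM without salt. SWEET11 and SWEET12, which export sucrose towards the phloem, were listed at 47.2 and 17.4 FPKM with salt, against 84.2 and 20.3 FPKM without salt. MSS1 (STP13), a hexose importer, was listed at 92.2 FPKM with salt, against 18.9 FPKM without salt, and the sucrose carrier SUC1 at 19.8 FPKM with salt, against 46.6 FPKM without salt. Of 8 genes for trehalose-phosphate synthases 3 were higher and none lower, and TPS11 was listed at 46.7 FPKM with salt, against 7.37 FPKM without salt, while TPS1, the catalytically active one, was listed at 26.6 FPKM with salt, against 27.4 FPKM without salt.

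In branched-chain amino acid breakdown 2 of 12 genes were higher and none lower, and IVD, isovaleryl-CoA dehydrogenase, was listed at 24.5 FPKM with salt, against 11.4 FPKM without salt. BCAT-2, the other, was listed at 3.59 FPKM with salt, against 1.18 FPKM without salt. With a pseudocount of 5, IVD and BCAT-2 came within 2-fold. Enzymes that lengthen fatty acids for wax and suberin (KCS) were higher in 4 of 21 cases and lower in none. KCS6, the main enzyme of leaf wax, was listed at 235 FPKM with salt, against 83.8 FPKM without salt, and KCS3 at 78.4 FPKM with salt, against 17.2 FPKM without salt. Lipid transfer proteins, which are secreted and bind lipids at the surface, were higher in 7 and lower in 27 of 128 cases, or 6 and 15 of the 46 above the limit in both columns. LTP3 and LTP4, which respond to ABA, were listed at 686 and 474 FPKM with salt, against 64.5 and 31.1 FPKM without salt, and AT2G37870 at 158 FPKM with salt, against 5.57 FPKM without salt. AT2G45180, a member with an abundant transcript without salt, was listed at 47.8 FPKM with salt, against 626 FPKM without salt. A cluster on chromosome 4 held some of the lowest ratios, with AT4G12520 at 1.64 FPKM with salt, against 94.4 FPKM without salt, and AT4G12545 at 3.12 FPKM with salt, against 92.2 FPKM without salt, whose sequences are shared to 47.3% and 48.4%.

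Cell wall genes were more often lower than higher in most families, with a few strong exceptions. Of 20 extensins, structural proteins of the wall, 13 were lower and none higher, and 8 of the 14 members were under 5 FPKM with salt, while of the 6 above the limit in both columns 4 were lower. EXT13 was listed at 2.61 FPKM with salt, against 73.1 FPKM without salt, and EXT11 at 0.564 FPKM with salt, against 21.7 FPKM without salt. EXT3, which forms the scaffold of the wall and was the most abundant, was listed at 383 FPKM with salt, against 815 FPKM without salt, with 23.9% of its sequence shared. Of 33 xyloglucan-modifying enzymes (XTH) 14 were lower and 3 higher, or 7 and 2 of the 18 above the limit in both columns. XTH12 and XTH13 were listed at 0.0220 and 0.0863 FPKM with salt, against 10.8 and 11.2 FPKM without salt. The 3 higher ones were TCH4 (XTH22), XTR6 (XTH23) and XTH18, which were listed at 143, 67.3 and 49.7 FPKM with salt, against 10.02, 3.11 and 13.2 FPKM without salt.

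**Figure D4:**
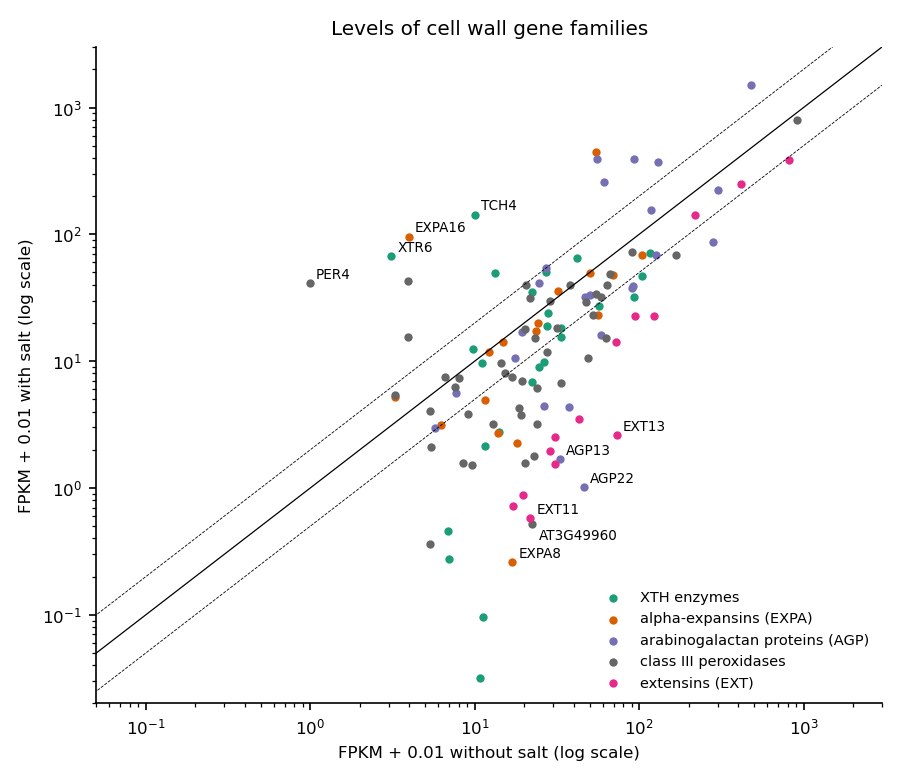
FPKM + 0.01 with salt on the y axis against FPKM + 0.01 without salt on the x axis, both on log scales, for members of 5 cell wall families, 1 point per gene; the solid line marks equal values and the dashed lines 2-fold on this scale. All 14 extensins lie below the solid line, while EXPA10, EXPA16, TCH4, XTR6 and PER4 lie above the upper dashed line.

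Expansins, which loosen the wall during growth, showed the same mix. Of 25 alpha-expansins 5 were lower and 2 higher, and of the 10 above the limit in both columns 1 was lower and 1 higher. EXPA8 was listed at 0.249 FPKM with salt, against 16.8 FPKM without salt, and EXPA14 at 2.26 FPKM with salt, against 17.9 FPKM without salt. EXPA10 was the most abundant, with 445 FPKM with salt, against 54.4 FPKM without salt, and EXPA16 was listed at 96.1 FPKM with salt, against 3.95 FPKM without salt. In summed FPKM the alpha-expansins therefore came to 848 with salt, against 515 without salt, although 13 of 17 members lay below 0. Arabinogalactan proteins (AGP), glycoproteins at the cell surface, were higher in 5 and lower in 8 of 30 cases, and 5 and 4 of the 19 above the limit in both columns. AGP22 was listed at 1.002 FPKM with salt, against 46.1 FPKM without salt, and AGP1 at 394 FPKM with salt, against 55.2 FPKM without salt. AGP15 was the most abundant, with 1511 FPKM with salt, against 477 FPKM without salt, and the summed FPKM of 24 members was 3761 with salt, against 2230.3 without salt. Fasciclin-like proteins were lower in 6 of 20 cases and higher in none, with FLA9 at 3.05 FPKM with salt, against 67.2 FPKM without salt.

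Class III peroxidases, which cross-link wall polymers and make or use hydrogen peroxide, were lower in 26 of 66 cases and higher in 5, and among the 28 above the limit in both columns 9 were lower and none higher. AT3G49960 was listed at 0.514 FPKM with salt, against 22.4 FPKM without salt. PER4, the highest ratio of the family, was listed at 41.2 FPKM with salt, against 0.982 FPKM without salt, and AT5G39580 at 43.04 FPKM with salt, against 3.92 FPKM without salt. Cellulose synthases (CESA) did not follow the loosening enzymes and extensins: none of 10 passed 2-fold and the median of 8 members was 0.25. CESA1 and CESA6 of the primary wall were listed at 144 and 104 FPKM with salt, against 95.3 and 64.2 FPKM without salt. Of the cellulose synthase-like genes 3 of 30 were higher and 2 lower, and CSLA01, of a group that holds glucomannan synthases, was listed at 19.97 FPKM with salt, against 1.10 FPKM without salt.

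Markers of root cell types were lower with salt where they mark root hairs and the endodermis. Of 16 root hair markers 12 were lower and none higher. All 8 that reached 5 FPKM did so only without salt, and the sum over all 16 was 29.003 FPKM with salt, against 203 FPKM without salt. PRP3 and RHS13, expressed in hairs, were listed at 2.33 and 1.81 FPKM with salt, against 40.6 and 37.5 FPKM without salt. The hair regulators RHD6 and RSL4, both under the limit, were listed at 4.89 and 2.49 FPKM with salt, against 4.997 and 4.64 FPKM without salt. Of 8 endodermis markers 6 were lower and none higher, and the sum over all 8 was 34.2 FPKM with salt, against 102 FPKM without salt. CASP1, which builds the Casparian strip, was listed at 8.36 FPKM with salt, against 35.4 FPKM without salt, whereas MYB36, its activator, was listed at 6.49 FPKM with salt, against 3.79 FPKM without salt. In whole seedlings, fewer cells of a type and less RNA per cell cannot be told apart.

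Markers of shoot tissues and of the stele lay within 2-fold, and those of dividing cells and seeds included lower genes. None of 6 stele and xylem markers passed 2-fold, and the median of 5 members was -0.10. Summed, the 5 came to 93.3 FPKM with salt, against 109 FPKM without salt. None of 8 markers of the stomatal lineage and guard cells and none of 5 mesophyll markers passed 2-fold. The mesophyll markers, which include RBCS1A, summed to 23343 FPKM with salt, against 29786 FPKM without salt, so shoot and root markers were both measured. Of 5 markers of dividing cells 2 were lower and none higher, CYC1BAT and CDC20.1, an activator of mitotic protein breakdown, which was listed at 15.8 FPKM with salt, against 43.7 FPKM without salt, and shares 31.4% of its sequence. Root cap, seed and pollen markers were all under 5 FPKM in both columns. Of 5 seed markers 2 were lower and none higher, the storage proteins CRA1 and CRU3, listed at 0.696 and 0.367 FPKM with salt, against 3.41 and 2.03 FPKM without salt. The share of root in the harvested material is unknown here, and its part in the root-marker values was not tested.

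**Figure D5:**
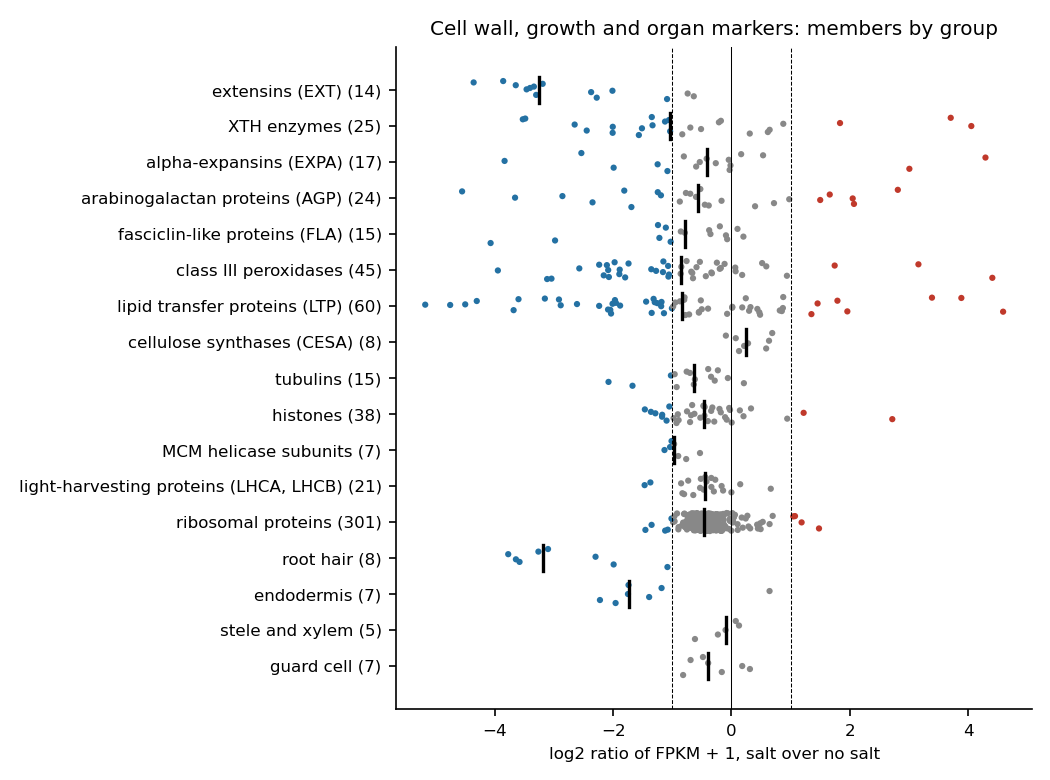
Log2 ratio of FPKM + 1 (salt over no salt) of the members of 17 families and marker lists of cell wall, growth, photosynthesis and tissues, 1 point per gene, with the median as a black bar and dashed lines at 2-fold; red points are higher, blue points lower and grey points within 2-fold. The extensin median lies at -3.25 and the root hair median at -3.18 over 8 genes that passed the limit only without salt (-3.19 and -1.42 with a limit of 1 FPKM), the 301 ribosomal protein genes crowd around -0.46, and the cellulose synthase median lies at 0.25.

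Genes of cell division and the cytoskeleton were shifted down by smaller amounts. Of 30 cyclins 4 were lower and none higher, and 17 of 19 members lay below 0. CYC1BAT, a B-type cyclin of mitosis, was listed at 8.89 FPKM with salt, against 18.9 FPKM without salt, while the D-type cyclin CYCD3;2 was listed at 40.8 FPKM with salt, against 40.5 FPKM without salt. All 7 members of the MCM helicase, which opens DNA for replication, lay below 0, and 3 of 9 listed were lower, such as MCM3 at 6.30 FPKM with salt, against 13.7 FPKM without salt. CYC1BAT and MCM3 came just within 2-fold when the columns were rescaled to equal sums over coding genes. With a pseudocount of 5, all 4 lower cyclins and all 3 lower MCM genes came within 2-fold. Of 47 histone genes 8 were lower and 3 higher. HTA11, a histone of the H2A.Z kind, was listed at 19.1 FPKM with salt, against 50.7 FPKM without salt, and AT1G75600, an H3 variant gene, at 6.40 FPKM with salt, against 0.124 FPKM without salt. Of 15 tubulin genes 3 were lower, and TUB5 was listed at 37.7 FPKM with salt, against 122 FPKM without salt.

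Photosynthesis and translation genes lay mostly below 0, by less than 2-fold. None of 13 photosystem I subunits, 11 photosystem II subunits or 4 Rubisco small subunits passed 2-fold, but all 27 members among them lay below 0. The medians were -0.34, -0.41 and -0.59, against -0.37 for all 339 genes with a mean of 300 FPKM or more. That class includes photosynthesis genes such as RBCS1A, and abundant genes without these families were not looked at apart. Of 21 light-harvesting genes 2 were lower, LHB1B1 with 587 FPKM with salt, against 1626 FPKM without salt, and LHCB2.3 with 388 FPKM with salt, against 1005 FPKM without salt, and LHCB2.3 shares 38.6% of its sequence. Among enzymes of chlorophyll synthesis, PORB, a light-dependent reductase, was lower, with 229.7 FPKM with salt, against 602 FPKM without salt, and GUN5, a subunit of magnesium chelatase, was listed at 325 FPKM with salt, against 307 FPKM without salt. Of 301 ribosomal protein members 276 lay below 0, with a median of -0.46 and 292 within 2-fold. All genes with a mean of 100 to 300 FPKM had a median of -0.23, and ribosomal protein genes were not taken out of that class. Their summed FPKM was 46813 with salt, against 64405 without salt, a difference comparable to that of the light-harvesting genes, whose sum was 49081 with salt, against 66186 without salt. Of 30 autophagy genes, which recycle cell contents, 2 were higher and none lower, and ATG8H was listed at 76.8 FPKM with salt, against 21.9 FPKM without salt.

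Carriers of nitrate and sulfate included both higher and lower genes, and those of phosphate and ammonium lower ones only, at 2 of 9 and 1 of 6. Of these, PHT1;2 was under 5 FPKM in both columns. With a pseudocount of 5, PHT1;2 and AMT1;3 came within 2-fold. Of 17 nitrate carriers (NRT) 3 were higher and 3 lower. NRT1.8, which takes nitrate back out of the xylem, was listed at 23.5 FPKM with salt, against 2.06 FPKM without salt, and NRT1.7, which loads it into the phloem of old leaves, at 80.7 FPKM with salt, against 20.2 FPKM without salt. The root uptake carrier NRT2:1 was listed at 1.58 FPKM with salt, against 7.70 FPKM without salt. NRT1.5, which loads the xylem, was listed at 15.5 FPKM with salt, against 29.9 FPKM without salt. PHT1;1 for phosphate was listed at 5.83 FPKM with salt, against 42.4 FPKM without salt, with 42.4% of its sequence shared, and AMT1;3 for ammonium at 1.42 FPKM with salt, against 7.65 FPKM without salt. Of 12 sulfate carriers 3 were higher and 1 lower. SULTR4;1, which releases sulfate from the vacuole, and SULTR3;4 were listed at 53.8 and 22.9 FPKM with salt, against 17.4 and 4.79 FPKM without salt, and SULTR3;5 at 1.20 FPKM with salt, against 13.2 FPKM without salt.

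Among ion pumps, AT3G22910, a calcium pump of the ACA family, was listed at 23.99 FPKM with salt, against 0.794 FPKM without salt, and the vacuolar calcium exchanger CAX3 at 42.2 FPKM with salt, against 6.56 FPKM without salt. Of the plasma membrane proton pumps (AHA), which power sodium export, HA3 was listed at 127 FPKM with salt, against 48.7 FPKM without salt, and HA2, the main root isoform, at 88.1 FPKM with salt, against 174 FPKM without salt. KUP11, a potassium carrier, was listed at 50.2 FPKM with salt, against 17.3 FPKM without salt. ABC transporters of the G group were higher in 9 of 43 cases and lower in 3. ABCG25 and ABCG40, which move ABA out of and into cells, were listed at 22.1 and 7.99 FPKM with salt, against 5.77 and 0.944 FPKM without salt, and ABCG22, a carrier of guard cells, at 57.5 FPKM with salt, against 10.03 FPKM without salt.

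By gene structure, the classes of strongly changed genes had fewer exons and shorter transcripts in both directions. Genes with a single exon made up 35.7% of the 658 coding genes at least 4-fold higher and 35.5% of the 234 at least 4-fold lower, against 10.5% of the 12902 within 2-fold and 13.4% of all. The median number of exons was 2 in both outer classes, against 5 within 2-fold. The median transcript was 1373 nt in the genes at least 4-fold higher and 1213 nt in those at least 4-fold lower, against 1754 nt within 2-fold. Exon numbers are those of the longest transcript in the annotation, and no splicing was measured here.

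None of 8 genes commonly used as a constant reference passed 2-fold, and their median log2 ratio was -0.03. ACT2, an actin, lay furthest down with 137 FPKM with salt, against 262 FPKM without salt, and UBQ10, a ubiquitin gene, furthest up with 1056 FPKM with salt, against 737 FPKM without salt.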

How the data were processed

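RNA of whole wild-type seedlings was measured by sequencing in 2 groups, with and without salt. The deposited tables of the authors give FPKM per gene, and that unit was inferred from the tools named in the processing notes and the range of the values, since the column headers name none. TopHat, Cufflinks and the TAIR10 build are named per the submitters' processing notes, with no version. The authors merged 2 replicates in each column, so the comparison has 1 value per group. The header of the column without salt reads WT-o, with a letter, and was taken as the untreated wild type, since no other group is wild type without salt. Fragment counts could not be recovered from FPKM steps: 70.3% of low values with salt and 51.4% without salt lay within 0.15 of a whole step. A count test was therefore not run, depth is unknown, and no counting interval is given.

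A pseudocount of 1 was added before log2. Genes were named from those among the 15 widest ratios or the 10 largest FPKM differences in each direction, among the 4 widest ratios past 2-fold of their family or its most abundant member, in a cell type list, or next to the FPKM limit. Not every gene that meets this rule is named. WRKY24, PAP1, MYB90, MYB28, MYB29, MYB51, NF-YC4, AT2G36160, ARR7, RR1, RR2, RR10, RR12, RR14, AT5G60520, GolS1, GSTU5, GSTU20, UGT74B1, SWEET11, SWEET12, TPS1, LTP3, LTP4, AT2G45180, XTH18, CESA6, GUN5, NRT1.5, HA2, ABCG25, AT1G07590 and the loci of the closing section other than MIR400, MIR397a, MIR398b and CBF1 lie outside that rule and were chosen after their values were seen. Some genes named for coming within 2-fold with a pseudocount of 5 lie outside it too, such as JAZ4, GH3.9, PHT1;2, BCAT-2, WRKY9 and WRKY56. The members and lists were chosen with earlier results of these data known. Families are genes whose RefSeq TAIR10.1 symbol or synonym matches the family name, less false matches of synonyms removed by hand. The TAIR10.1 assembly gave names, exons, promoters and shared 50-nt stretches, compared on both strands, and 15717 of 15761 genes matched it. A second deposited table, which pairs the same salt values with the skip mutant, served only as a scale check: its values for wild type with salt differed by a constant ratio of 1.1049, within 1 percent for 24878 of 24882 genes. Scripts were tested on simulated data. Python 3.11.15, numpy 2.4.6, pandas 2.3.3, scipy 1.17.1 and matplotlib 3.10.9 were used. Alternatives changed the pseudocount, FPKM limit, fold rule, scaling, loci left out and promoter window.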

Additional observations from a re-analysis of the deposited data

How the results depend on the processing

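No paired analysis was possible because each column merges the replicates. The higher genes numbered 3003 at 1.5-fold, 677 at 4-fold and 1072 at 20 FPKM or more. The lower genes numbered 2274 at 1.5-fold, 243 at 4-fold, 492 at 20 FPKM or more and 571 with a pseudocount of 5, which also left 9 families with a median of -0.5 or less in place of 15. Without rRNA, non-coding and short loci, lower genes held 2.24% of the FPKM with salt and 6.64% without salt. With 4-fold classes, the ABRE core was in 52.9% of higher and 35.9% of lower promoters, the W-box in 59.4% and 43.6%, the GCC box and CAMTA core in 3.34% and 20.2% of higher ones, and site II in 6.84% of lower ones. Before the gene start alone, higher and lower promoters held the ABRE core in 39.7% and 26.8%, the W-box in 51.0% and 45.0%, the evening element in 13.3% and 12.0% and the telo box in 4.08% and 5.35%, while higher ones held the DRE core in 16.7% and the CAMTA core in 13.1%. This window is shorter by construction. The cause of the other shifts was not tested. No family median past 2-fold changed sign under the alternatives run. For single genes this is no check, since neither a pseudocount nor loci left out can turn the sign of a gene's ratio. For site II the order of higher and lower promoters turned, at 11.9% and 14.2% by 2-fold classes and 10.6% and 6.84% by 4-fold classes, and the GCC box in higher promoters was at 2.19% by 2-fold classes, under the 2.62% of all members. With a pseudocount of 5, 47 of the 346 genes that meet the naming rule came within 2-fold. The 346 also include genes such as MT1A that were within 2-fold from the start. Rescaling to equal sums and centring moved no family median across 2-fold. With 1 merged value per group, the spread between plants is unknown.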

Other observations

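Loci of microRNA precursors were among the widest ratios. MIR400, MIR397a, MIR398b and MIR398c are short, at 102, 107, 116 and 115 nt. Since FPKM is per transcript length, few reads can give a large value at such loci, and read counts are unknown here. MIR397a, MIR398b, MIR398c and MIR408 make microRNAs that are known to target copper proteins. MIR397a and MIR398b were listed at 187 and 40.3 FPKM with salt and at 0 without salt. MIR398c was listed at 14.3 FPKM with salt, against 5.33 FPKM without salt, within 2-fold with a pseudocount of 5, and MIR408 at 7.77 FPKM with salt, against 1.29 FPKM without salt. All sequence of MIR398b and MIR408 is shared with another locus. MIR824, whose product targets the flowering and stomatal regulator AGL16, was listed at 33.6 FPKM with salt, against 6.63 FPKM without salt. On the lower side, besides MIR400, MIR163 was listed at 4.65 FPKM with salt, against 20.7 FPKM without salt, and MIR157c at 3.03 FPKM with salt, against 14.1 FPKM without salt.

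Neighbours of a higher or lower gene passed 2-fold in its direction more often than neighbouring genes in general. Among 9652 pairs of neighbouring members, 198 were both higher, 72 both lower and 89 opposite. The neighbour of a higher gene was higher in 18.9% of cases, against 10.9% of all genes in these pairs, and in 18.0% when pairs with 20% or more shared sequence were left out. This share was 23.0% for pairs that point away from each other, 19.9% for pairs on the same strand and 12.5% for pairs that point at each other. Of all genes in such pairs, 10.2%, 11.4% and 10.4% were higher. The neighbour of a lower gene was lower in 13.7% of cases, against 5.44% of all. Next genes on the same strand within 300 nt were higher in 14.0% of 43 cases after a gene at least 4-fold higher, against 4.69% of 1558 cases after a gene within 2-fold, while the median log2 ratios of these next genes were alike at -0.05 and -0.06. At gaps of 1000 nt or more on the same strand the shares were 30.7% and 16.8%, and for pairs that point at each other within 300 nt they were 8.75% and 8.90%.

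Runs of neighbours included known clusters. The cold regulators CBF2, DREB1A and CBF1 stand side by side and were listed at 33.7, 33.2 and 49.7 FPKM with salt, against 0.679, 2.87 and 0.167 FPKM without salt. The thalianol cluster, which makes a root triterpene, lay on the other side. Its synthase THAS1 was listed at 11.6 FPKM with salt, against 63.7 FPKM without salt, the oxidase CYP708A2 at 5.67 FPKM with salt, against 51.8 FPKM without salt, and CYP705A5 at 18.1 FPKM with salt, against 69.3 FPKM without salt.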
